A study of Danio rerio with 12 samples.

Results

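The cyp1 family of cytochromes P450 was followed through 5 Affymetrix probe sets, which are all the probe sets whose single platform gene symbol is cyp1a, cyp1c1 or cyp1d1. They cover 3 of the 8793 genes that carry a single symbol on the array, and 5 of the 15502 probe sets tested. The gene cyp1a had 1 probe set, Dr.9478.1.S1_at. The gene cyp1c1 had 3, Dr.12329.1.A1_at, DrAffx.2.87.S1_at and DrAffx.2.87.A1_at, and cyp1d1 had 1, DrAffx.2.90.S1_at. The related genes cyp1b1 and cyp1c2 were not analysed here.

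RNA came from regenerating caudal fins of AB strain zebrafish larvae, whose fins had been cut at 2 days post fertilization. After the cut, the animals spent 1 h in water with TCDD at 0.5 ng/mL or with the solvent DMSO alone (vehicle), and the regrown tissue was taken at 3 or 2 days post amputation (dpa). The 4 groups of 3 arrays were TCDD 3 dpa, TCDD 2 dpa, vehicle 3 dpa and vehicle 2 dpa. Each array held 100 ng of RNA from 1 pool of 150 fins, so all p-values measure the spread between pools and not between larvae. Whole regrown tissue was used, so more cells that express a gene and more RNA per cell cannot be told apart.

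CYP1 enzymes are haem proteins of the endoplasmic reticulum that oxidise planar aromatic compounds, with electrons passed on by NADPH-cytochrome P450 reductase and, for some reactions, cytochrome b5. TCDD is a chlorinated dioxin that binds the aryl hydrocarbon receptor (AHR). The liganded receptor pairs with ARNT and binds DNA near its target genes, and in fish Ahr2 is the main receptor for this response. Induction of cyp1a is the standard sign that the pathway is active in zebrafish larvae. The genes cyp1c1 and cyp1c2 form a subfamily that mammals lack, and cyp1d1 is a further member present in fish that is a pseudogene in humans.

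In the GRCz12tu assembly, used for gene names and positions, cyp1a (Entrez 140634) lies on chromosome 18 from 1069707 to 1080591. The gene cyp1c1 (Entrez 553637) lies on chromosome 17 from 2147449 to 2150520, and cyp1c2 begins 3764 bases beyond its end, from 2154285 to 2158951. The gene cyp1d1 (Entrez 492344) lies on chromosome 5 from 26220705 to 26235478. Whether the cyp1c1 probe sets also read the neighbouring cyp1c2 transcript was not tested, and probe sequences were not used here.

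Each deposited value is a ratio: the signal of a probe set on 1 array over a divisor of that probe set's own, which is its median over the 12 arrays for most probe sets. A ratio of 1 therefore stands for a middle reading of that probe set, not for an amount of transcript, and levels of different probe sets cannot be compared. Differences are given on the log2 scale as TCDD minus vehicle, or 3 dpa minus 2 dpa, with the standard error (SE) of a limma fit over all 12 arrays. CI stands for the confidence interval of that fit. A probe set was called when its Benjamini-Hochberg adjusted p over the 15502 probe sets was under 0.05. Mean ratios are given ± SD with n = 3 arrays.

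The strongest separation of TCDD from vehicle fins was in cyp1a. The cyp1a ratio was 2.05, 4.30 and 1.98 on the TCDD 3 dpa arrays, against 0.00398, 0.0241 and 0.0127 on the vehicle 3 dpa arrays. Its ratio was 3.17, 2.41 and 2.28 on the TCDD 2 dpa arrays, against 0.0196, 0.0159 and 0.000773 on the vehicle 2 dpa arrays. All 6 TCDD arrays were high and all 6 vehicle arrays low, with no overlap on either day. The lowest TCDD reading of cyp1a was 81.9 times the highest vehicle reading.

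The mean cyp1a ratio was 2.77 ± 1.32 with TCDD at 3 dpa, against 0.0136 ± 0.0101 with vehicle. On the earlier day, 2 dpa, the mean was 2.62 ± 0.477 with TCDD, against 0.0121 ± 0.00996 with vehicle. The limma difference for cyp1a was 7.92 at 3 dpa (SE 1.09, adjusted p = 0.0163), which is 242-fold (95% CI 44.9 to 1309.) At 2 dpa the cyp1a difference was 8.70 (SE 1.09, adjusted p = 0.0165), which is 417-fold (95% CI 77.2 to 2253.) Averaged over both days it was 8.31 (SE 0.77, adjusted p = 0.000909), which is 318-fold (95% CI 96.5 to 1048.) Of all 15502 probe sets tested, the cyp1a probe set had the largest positive difference in each of these 3 comparisons.

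The size of the cyp1a fold rests on vehicle readings close to 0. With ratios under 0.01 raised to 0.01, the cyp1a difference was 7.48 at 3 dpa and 7.47 at 2 dpa. With 0.1 added to every ratio it was 4.57 at 3 dpa and 4.59 at 2 dpa. The adjusted p under these settings lay between 4.89e-05 and 9.27e-05, so the call held while the size did not. As a ratio of mean ratios, in which the lowest vehicle readings weigh little, the cyp1a fold was 204 at 3 dpa and 217 at 2 dpa. Leaving out 1 array also moved the size: the difference was 7.20 at 2 dpa without vehicle 2 dpa replicate 3, and 7.21 at 3 dpa without vehicle 3 dpa replicate 1.

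The gene cyp1c1, whose product metabolises aromatic compounds like that of cyp1a, followed the same pattern through its probe set Dr.12329.1.A1_at. This cyp1c1 probe set read 1.70, 3.45 and 2.19 with TCDD at 3 dpa, against 0.0160, 0.0648 and 0.301 with vehicle. On the 2 dpa arrays it read 2.35, 2.23 and 1.83 with TCDD, against 0.0390, 0.0399 and 0.0207 with vehicle. The TCDD and vehicle arrays did not overlap on either day, and the lowest TCDD reading was 5.64 times the highest vehicle reading. That highest vehicle reading came from vehicle 3 dpa replicate 3, which stood above the other 5 vehicle arrays.

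The mean ratio of Dr.12329.1.A1_at was 2.45 ± 0.905 with TCDD at 3 dpa, against 0.127 ± 0.152 with vehicle. The mean at 2 dpa was 2.14 ± 0.270 with TCDD, against 0.0332 ± 0.0108 with vehicle. The limma difference for this cyp1c1 probe set was 5.11 at 3 dpa (SE 0.82, adjusted p = 0.0285), which is 34.6-fold (95% CI 9.72 to 123.) The difference at 2 dpa was 6.06 (SE 0.82, adjusted p = 0.0238), which is 66.7-fold (95% CI 18.8 to 237.) Over both days it was 5.59 (SE 0.58, adjusted p = 0.00153), which is 48.0-fold (95% CI 19.6 to 118.) It ranked second among all probe sets by positive difference in all 3 comparisons. Without vehicle 3 dpa replicate 3 the difference at 3 dpa was 6.19, and without vehicle 3 dpa replicate 1 it was 4.07. The size of this fold, too, rests on vehicle readings close to 0. With 0.1 added to every ratio the difference was 3.63 at 3 dpa and 4.06 at 2 dpa. Quantile normalization gave 4.49 at 3 dpa and 5.47 at 2 dpa. As a ratio of mean ratios the fold was 19.2 at 3 dpa and 64.3 at 2 dpa.

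The other cyp1c1 probe sets, DrAffx.2.87.S1_at and DrAffx.2.87.A1_at, share 1 source accession in the platform annotation. DrAffx.2.87.S1_at read 1.18, 1.78 and 1.37 with TCDD at 3 dpa, against 0.588, 0.825 and 0.788 with vehicle. Its 2 dpa readings were 1.18, 1.19 and 1.33 with TCDD, against 0.742, 0.657 and 0.641 with vehicle. Its TCDD arrays also lay above its vehicle arrays on both days, but the groups were much closer together than for Dr.12329.1.A1_at. The lowest TCDD reading was 1.42 times the highest vehicle reading.

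The difference of DrAffx.2.87.S1_at was 0.97 at 3 dpa (SE 0.17, adjusted p = 0.0379), which is 1.96-fold (95% CI 1.51 to 2.53.) The 2 dpa difference was 0.86 (SE 0.17, adjusted p = 0.106), which missed the threshold. Over both days it was 0.91 (SE 0.12, adjusted p = 0.00453), which is 1.88-fold (95% CI 1.57 to 2.26.) The 95% intervals of the 2 cyp1c1 probe sets did not overlap in any of these comparisons, so the fold of cyp1c1 depends on which probe set is read.

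DrAffx.2.87.A1_at showed no detectable difference. It read 1.05, 1.25 and 1.00 with TCDD at 3 dpa, against 1.00, 1.00 and 1.01 with vehicle. The 2 dpa arrays read 1.00, 1.09 and 0.996 with TCDD, against 0.996, 0.957 and 0.950 with vehicle. The groups overlapped when the 6 TCDD arrays were set against the 6 vehicle arrays. The difference was 0.12 at 3 dpa (adjusted p = 0.588), 0.09 at 2 dpa (adjusted p = 0.839) and 0.11 over both days (adjusted p = 0.402). The interval over both days ran from a fold of 0.973 to 1.19, which lies below the interval of either of the other cyp1c1 probe sets.

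The gene cyp1d1 encodes a further CYP1 enzyme. Its probe set DrAffx.2.90.S1_at read 0.941, 1.08 and 0.786 with TCDD at 3 dpa, against 1.105, 0.887 and 0.919 with vehicle. The 2 dpa arrays gave 1.13, 0.926 and 0.879 with TCDD, against 0.864, 0.928 and 0.868 with vehicle. The groups overlapped on both days, and no group stood apart. The mean ratio of cyp1d1 was 0.936 ± 0.148 with TCDD and 0.970 ± 0.118 with vehicle at 3 dpa, and 0.977 ± 0.131 with TCDD and 0.887 ± 0.0360 with vehicle at 2 dpa.

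The cyp1d1 difference was −0.06 at 3 dpa (SE 0.14, adjusted p = 0.910) and 0.13 at 2 dpa (SE 0.14, adjusted p = 0.847). Over both days it was 0.04 (SE 0.10, adjusted p = 0.890), with a 95% interval of the fold from 0.880 to 1.20. That interval bounds the change in the ratio of this probe set, not in the amount of cyp1d1 transcript. Smaller changes were not detectable with 3 arrays a group. The median of cyp1d1 over the 12 arrays was 0.923 rather than 1. It was 1 of 3553 rows with a median below 1, and no row had a median above 1. The divisor of such a row is therefore not its own median. Whether these rows carry low signal, where a flat ratio could also mean undetected transcript, was not tested.

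**Figure D1:**
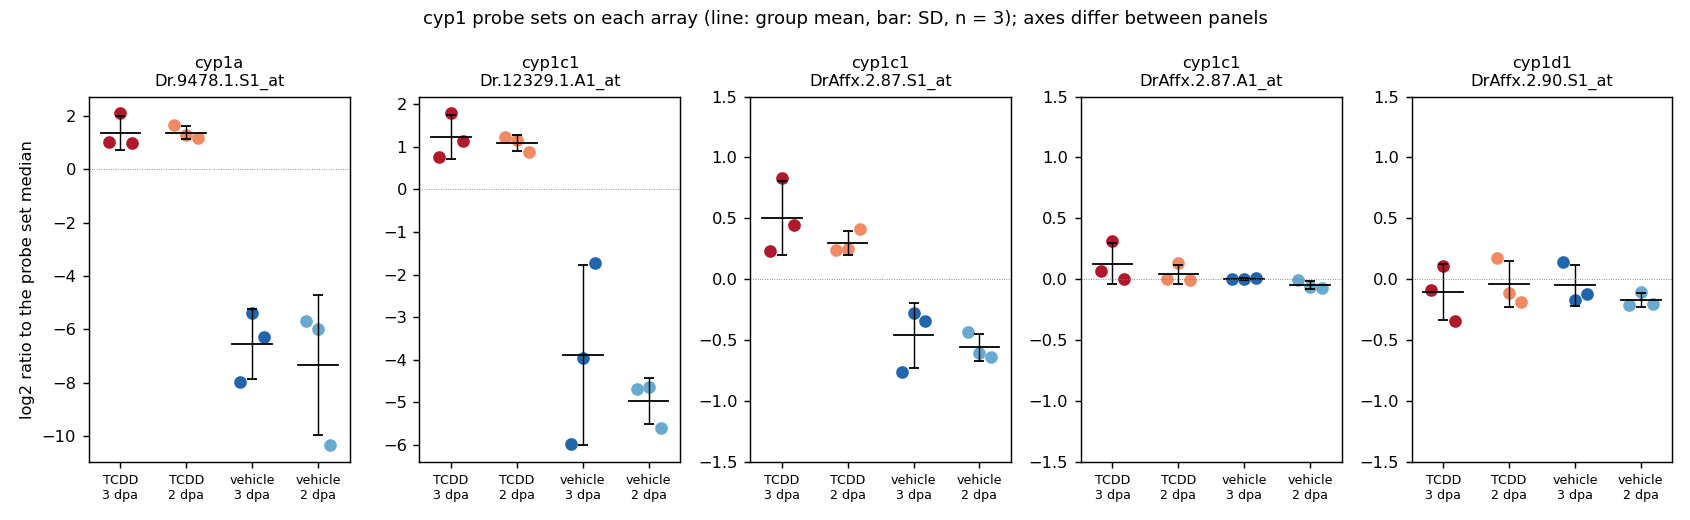
Log2 ratio of each cyp1 probe set on each of the 12 arrays (vertical axis, with its own range for cyp1a and for cyp1c1 Dr.12329.1.A1_at), by group (horizontal axis). Points are arrays, horizontal lines group means and bars the SD (n = 3). The TCDD arrays lie above all vehicle arrays for cyp1a and for Dr.12329.1.A1_at and DrAffx.2.87.S1_at of cyp1c1, and the groups overlap for DrAffx.2.87.A1_at and cyp1d1.

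The plot of log2 ratios by array sets the 5 probe sets side by side and shows where the spread lies. For cyp1a the 6 TCDD readings stayed within a factor of 2.17 of each other, while the 6 vehicle readings spanned a factor of 31.2. For cyp1c1 Dr.12329.1.A1_at the TCDD readings stayed within a factor of 2.03 and the vehicle readings spanned a factor of 18.8. The spread that sets the SE of these probe sets is therefore mostly spread among low vehicle readings. The log2 SD of cyp1a was 0.63 at 3 dpa and 0.25 at 2 dpa with TCDD, against 1.32 and 2.61 with vehicle.

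The residual SD of the fit for cyp1a was larger than that of 99.8% of all probe sets. It was 1.13 for cyp1c1 Dr.12329.1.A1_at, where 99.4% of probe sets had a smaller one. The other cyp1c1 probe sets and cyp1d1 had residual SDs of 0.215, 0.0938 and 0.174 on the log2 scale, in the order DrAffx.2.87.S1_at, DrAffx.2.87.A1_at and cyp1d1. The probe sets with the largest TCDD differences were thus among the noisiest on the array, and their adjusted p-values were moderate for folds of this size.

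The array TCDD 3 dpa replicate 2 gave the highest reading of cyp1a and of all 3 cyp1c1 probe sets, and TCDD 2 dpa replicate 1 the highest of cyp1d1. TCDD 3 dpa replicate 2 also stood apart in its hybridisation control probe sets. The 18 such probe sets read a mean log2 ratio of 0.34 on that array and from 0.26 to 0.29 on the 3 vehicle 3 dpa arrays, against −0.14 to −0.01 on the other 8 arrays. Among the 4 arrays of high control level, all from 3 dpa, the TCDD array exceeded the vehicle mean by 8.65 for cyp1a, 5.67 for cyp1c1 Dr.12329.1.A1_at and 1.30 for DrAffx.2.87.S1_at. In the same 4 arrays the difference was 0.31 for DrAffx.2.87.A1_at and 0.16 for cyp1d1. The first of these differences were as large as those over all 3 dpa arrays, but they set a single TCDD array against 3 vehicle arrays and carry no test.

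A log2 difference, the 5′ minus the 3′ GAPDH control probe set, was used as a relative measure of RNA integrity and labelling. It was 0.17 to 0.49 on the TCDD arrays, against −0.10 to 0.08 on the vehicle arrays. Each GAPDH reading is over a divisor of its own, so only shifts between arrays can be read, not the level itself. The GAPDH difference separated the exposures on every array, as cyp1a did, and its part in the cyp1 differences was not tested. Markers of epidermis (11 of 11 genes measured), fin fold and mesenchyme (11 of 13), liver (9 of 12), gut (7 of 9), endothelium (3 of 10), red blood cells (7 of 10), skeletal muscle (10 of 12) and neural tissue (8 of 9) were read beside the cyp1 genes. For none of these lists did the median log2 ratio separate all 6 TCDD arrays from all 6 vehicle arrays, but 3 lists separated on 1 of the days. In 7.99% of all single probe sets at 3 dpa and 8.28% at 2 dpa the TCDD arrays all lay above the vehicle arrays. The share lying below on a single day, and the share for list medians, were not counted. The separations of the lists are therefore a description and not a test. Array medians of the fin fold and mesenchyme list were −0.31 to 0.001 with TCDD at 3 dpa, against 0.06 to 0.13 with vehicle. Those of the red blood cell list were −0.49 to −0.25 with TCDD at 2 dpa, against −0.86 to −0.60 with vehicle. Those of the gut list were −0.06 to 0.04 with TCDD at 2 dpa, against −0.15 to −0.11 with vehicle. The liver list, for an organ in which cyp1a is strongly inducible, had array medians of −0.17 to −0.14 with TCDD at 3 dpa and −0.19 to 0.09 with TCDD at 2 dpa, against −0.23 to 0.08 and −0.20 to −0.08 with vehicle. Of the 15 fin fold and mesenchyme probe sets 3 were called lower over both days, against 3.2% of all probe sets, with a list median of −0.20. All 8 red blood cell probe sets had differences above 0 at 2 dpa, up to 2.44 for the globin gene hbae3 (adjusted p = 0.335), and 0 were called by limma. An unadjusted p under 0.05 was seen in 3 of them (37.5%, against 10.2% of all probe sets), and hbae3 was read by more than 1 probe set. The 12 skeletal muscle probe sets had a median difference of 0.39 over both days, with 0 called by limma and 0 at an unadjusted p under 0.05. Of all probe sets 5.0% and 21.5% were so counted over both days. At 3 dpa the skeletal muscle median was 0.68, with all 12 probe sets above 0 and 0 called by limma. At an unadjusted p under 0.05 there was 1 of them (8.33%, against 15.7% of all probe sets). Array medians of this list were −0.13 to 1.61 with TCDD at 3 dpa, against −0.13 to 0.13 with vehicle. The part of these lists in the cyp1 differences was not tested. As the ratios are relative to each probe set, they do not show whether any of these cell types is present.

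Of the 5 cyp1 probe sets, 3 were called at 3 dpa, all higher with TCDD. Among all probe sets 0.574% were called in this comparison, and 0.284% were called higher. At 2 dpa 2 of the 5 were called, both higher, against 0.161% of all probe sets and 0.0903% in this direction. For the mean over both days the count was 3 of 5, all higher, against 5.0% of all probe sets and 1.8% in this direction. At an unadjusted p under 0.05 the count was 3 of 5 in each of these comparisons, against 15.7% of all probe sets at 3 dpa, 10.2% at 2 dpa and 21.5% over both days. In the cyp1a probe set and 2 cyp1c1 probe sets the TCDD arrays all lay above the vehicle arrays, against 7.99% of all probe sets at 3 dpa, 8.28% at 2 dpa and 1.64% over the 6 arrays against 6. The median difference over the 5 cyp1 probe sets was 0.97 at 3 dpa, 0.86 at 2 dpa and 0.91 over both days, against 0.01, −0.00 and 0.00 over all probe sets. The count over the family is 3 probe sets of 2 genes, since 3 of the 5 read cyp1c1. The family was chosen with earlier results of these data known, so these shares describe it and are not a test.

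Whether the TCDD difference itself changed between the days was tested as an interaction. It was −0.78 for cyp1a (SE 1.55), with a 95% interval from −4.22 to 2.66. Its sign turned to 0.72 without vehicle 2 dpa replicate 3, the array with the lowest cyp1a reading, and it was 0.0055 with ratios under 0.01 raised to 0.01. For cyp1c1 Dr.12329.1.A1_at the interaction was −0.95 (SE 1.16), with an interval from −3.54 to 1.64, and it turned to 0.13 without vehicle 3 dpa replicate 3. For DrAffx.2.87.S1_at it was 0.11 (SE 0.24), and it ranged from −0.06 to 0.24 with 1 array left out. No direction of a day dependence can therefore be given for these probe sets. None of the 5 cyp1 probe sets was called by limma, and 0 of the 5 had an unadjusted p under 0.05. Over all probe sets 0.0% were called, while 226 (1.46%) had an unadjusted p under 0.05. For cyp1a the interval allows a TCDD effect several fold larger or smaller on the later day, so equal effects on the 2 days were not shown.

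Within one exposure the days did not separate either. The 3 dpa minus 2 dpa difference of cyp1a was 0.00013 in TCDD fins (SE 1.09, 95% interval from −2.43 to 2.43) and 0.78 in vehicle fins (SE 1.09, interval from −1.65 to 3.22). For cyp1c1 Dr.12329.1.A1_at it was 0.14 in TCDD fins (SE 0.82) and 1.09 in vehicle fins (SE 0.82). Each SE uses a spread shared by all groups, so in TCDD fins it carries the larger spread of the vehicle arrays. All vehicle 3 dpa arrays had the high hybridisation control level and all vehicle 2 dpa arrays the low one. Day and that level thus cannot be told apart in vehicle fins. TCDD 3 dpa replicate 2 was the only TCDD array at the high level, so the day dependence is confounded with it in part. Single vehicle arrays set both vehicle values. That of Dr.12329.1.A1_at was 0.02 without vehicle 3 dpa replicate 3 and 2.13 without vehicle 3 dpa replicate 1. That of cyp1a ranged from −0.72 without vehicle 2 dpa replicate 3 to 1.61 without vehicle 2 dpa replicate 1. None of the 5 cyp1 probe sets was called by limma in TCDD fins or in vehicle fins, and 0 of the 5 had an unadjusted p under 0.05 in either. Over all probe sets 0.0% were called in each, while 621 (4.01%) in TCDD fins and 578 (3.73%) in vehicle fins had an unadjusted p under 0.05. TCDD fins thus read cyp1a and cyp1c1 Dr.12329.1.A1_at high at 3 dpa and at 2 dpa after an exposure that had lasted 1 h.

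**Figure D2:**
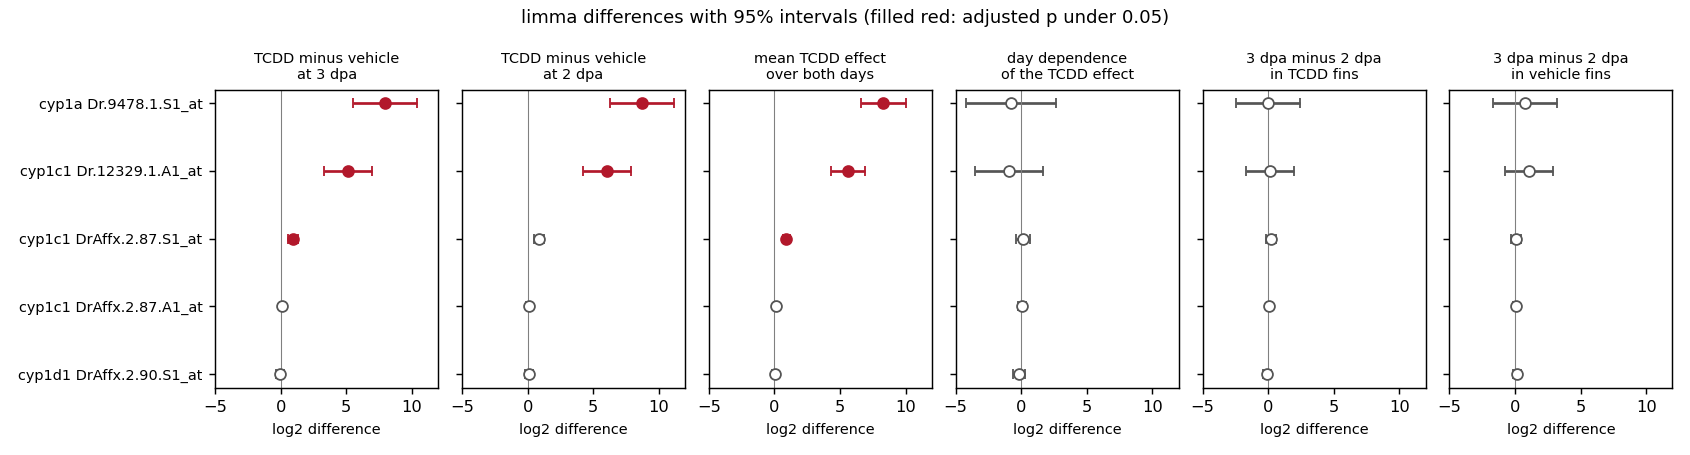
Log2 differences of the 5 cyp1 probe sets (rows) in the 6 comparisons (panels), with 95% intervals of the limma fit. Filled red points had an adjusted p under 0.05: 3 of 5 at 3 dpa, 2 of 5 at 2 dpa, 3 of 5 over both days and 0 of 5 in the comparisons between days.

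The plot of log2 differences in the 6 comparisons shows that the intervals of cyp1a and cyp1c1 Dr.12329.1.A1_at are wide in every panel and lie clear of 0 in the 3 TCDD panels. It also shows wide intervals for the day comparisons of these genes, which rest on a spread shared by all groups. For cyp1a the log2 SD was 0.63 at 3 dpa and 0.25 at 2 dpa with TCDD, against 1.32 and 2.61 with vehicle. The interval in TCDD fins thus does not measure the spread of the TCDD arrays alone. In vehicle fins changes of a few fold were not resolved. The intervals of DrAffx.2.87.A1_at and cyp1d1 are narrow and include 0 throughout.

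The calls of single days were not firm against the loss of 1 array. The cyp1a call at 3 dpa was lost without vehicle 3 dpa replicate 1 (adjusted p = 0.0734) or TCDD 3 dpa replicate 3 (adjusted p = 0.0562), and over all its alternatives the adjusted p lay between 4.89e-05 and 0.0734. At 2 dpa it was lost without TCDD 2 dpa replicate 1, 2 or 3 (adjusted p = 0.0789, 0.0817 and 0.0816), and the adjusted p lay between 4.93e-05 and 0.103. The call of cyp1c1 Dr.12329.1.A1_at was lost at 3 dpa without any 1 of 7 arrays, with adjusted p from 0.0521 to 0.0929. They were TCDD 3 dpa replicates 1 and 3, TCDD 2 dpa replicates 1 and 2, vehicle 3 dpa replicate 2 and vehicle 2 dpa replicates 1 and 2. At 2 dpa its call did not survive the removal of any single 2 dpa array, or of vehicle 3 dpa replicate 2, with adjusted p from 0.0556 to 0.111. The call of DrAffx.2.87.S1_at at 3 dpa was lost without 9 of the 12 arrays, with adjusted p from 0.0542 to 0.119. The exceptions were TCDD 3 dpa replicates 1 and 2 and TCDD 2 dpa replicate 3. Over both days none of the 3 calls was lost in any of 20 alternatives, with adjusted p at most 0.00493 for cyp1a, 0.00761 for cyp1c1 Dr.12329.1.A1_at and 0.0162 for DrAffx.2.87.S1_at.

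**Figure D3:**
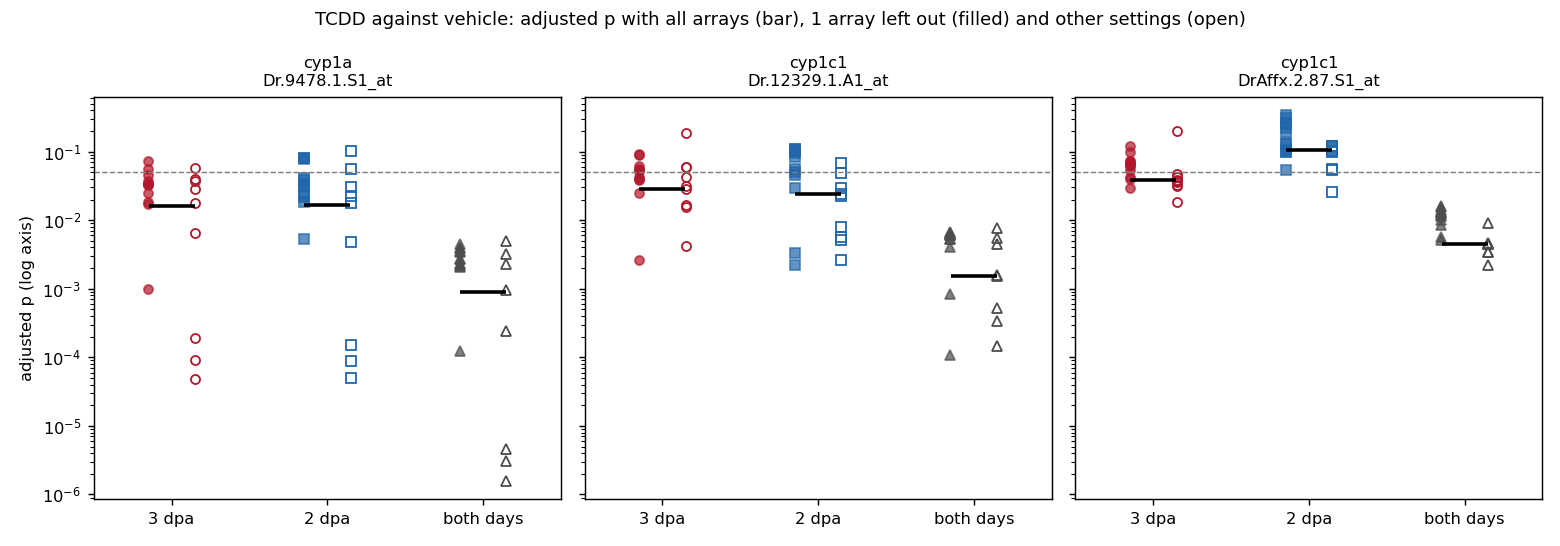
Adjusted p (log axis) of the 3 called cyp1 probe sets for TCDD against vehicle at 3 dpa, at 2 dpa and over both days. Black bars are the fit to all 12 arrays, filled symbols fits with 1 array left out, open symbols other settings, and the dashed line 0.05. All symbols for both days lie below the line, while those for single days fall on either side.

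The arrays were then searched for the probe sets that read most like cyp1a, as a description without a test. Over the 12 arrays the highest Pearson correlation with cyp1a among probe sets with 1 symbol was that of cyb5a (0.968), which encodes cytochrome b5, an electron donor of P450 enzymes. It was followed by cyp1c1 Dr.12329.1.A1_at (0.954), an mpx probe set (0.949), jac1 (0.942) and cyp1c1 DrAffx.2.87.S1_at (0.940). These 12 points share the split into TCDD and vehicle, so any probe set that separates the exposures correlates with cyp1a. On deviations from the group means, which remove that split, the correlation with cyp1a was 0.751 for cyb5a, 0.510 for Dr.12329.1.A1_at, 0.540 for DrAffx.2.87.S1_at, 0.456 for jac1 and 0.191 for mpx. The array with the lowest cyp1a ratio (0.000773), vehicle 2 dpa replicate 3, also had the lowest cyb5a ratio of its group (0.242). How far these correlations rest on that array was not tested.

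For cyp1c1 Dr.12329.1.A1_at the most alike among probe sets with 1 symbol were cyp1a (0.954) and cyp1c1 DrAffx.2.87.S1_at (0.948). Next came tph2 (0.939), gchfr (0.937) and the same mpx probe set (0.935). The gene tph2 encodes a tryptophan hydroxylase of serotonin synthesis, and gchfr the feedback regulator of GTP cyclohydrolase, the entry enzyme of tetrahydrobiopterin synthesis. The mean TCDD difference over both days was 1.15 for tph2 (SE 0.11, adjusted p = 0.00105) and 1.99 for gchfr (SE 0.13, adjusted p = 7.57e-05). It was 2.65 for jac1 (SE 0.31, adjusted p = 0.00326). On deviations from group means their correlations with cyp1c1 were 0.343 for tph2 and 0.358 for gchfr.

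Within one exposure the likeness of cyp1a and cyp1c1 Dr.12329.1.A1_at was read from 6 arrays at a time. Among the 6 TCDD arrays Pearson's r was 0.878 and Spearman's rho 0.829, and r was 0.202 without the 2 arrays farthest from the median of cyp1a. Among the 6 vehicle arrays r was 0.525 and rho 0.543, and r was −0.63 without the 2 farthest. Leaving out the 2 farthest arrays narrows the range of cyp1a, which tends to lower r by itself. The fall in r therefore cannot show that the likeness rested on few arrays. These values describe the arrays only.

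**Figure D4:**
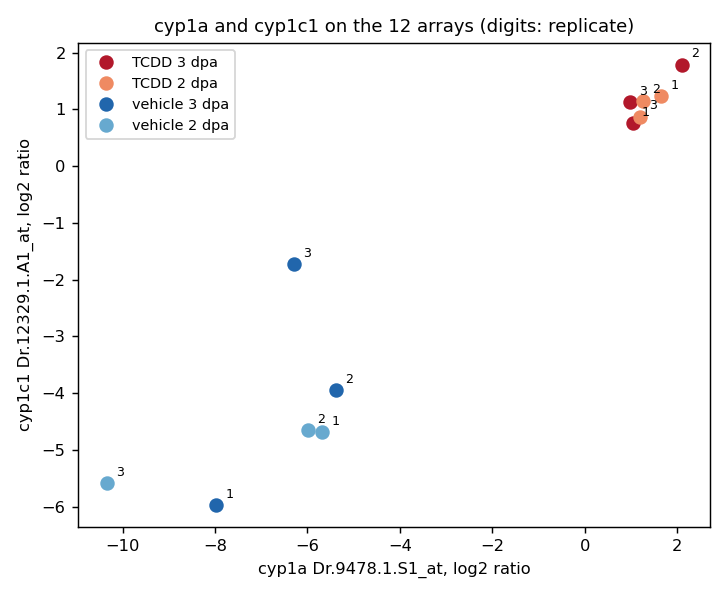
Log2 ratio of cyp1c1 Dr.12329.1.A1_at (vertical axis) against that of cyp1a (horizontal axis) on the 12 arrays, coloured by group, with the replicate number beside each point. The 6 TCDD arrays form a tight cluster at the top right, and the 6 vehicle arrays are spread over the lower left, with vehicle 3 dpa replicate 3 highest among them in cyp1c1 and vehicle 2 dpa replicate 3 lowest in cyp1a.

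The plot of cyp1c1 against cyp1a shows that the 12 arrays form 2 separate clusters by exposure. The array with the lowest cyp1a reading, vehicle 2 dpa replicate 3, did not have the lowest cyp1c1 reading, which came from vehicle 3 dpa replicate 1.

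The mpx probe set in these lists, Dr.9478.2.S1_at, carries the same cluster number in its name as the cyp1a probe set Dr.9478.1.S1_at. The gene mpx encodes the peroxidase of neutrophil granules. Its probe set read 1.99, 3.40 and 3.56 with TCDD at 3 dpa, against 0.222, 0.217 and 0.226 with vehicle. The 2 dpa readings were 1.88, 3.25 and 1.72 with TCDD, against 0.220, 0.276 and 0.208 with vehicle. The mean difference over both days was 3.47 (SE 0.19, adjusted p = 2.59e-05). The other 3 mpx probe sets of that cluster number had mean differences of −0.31, 0.02 and −0.00 and none was called, so the annotated mpx probe sets disagree. Which transcript Dr.9478.2.S1_at reads was not tested here.

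The probe set DrAffx.2.90.A1_at shares its number with the cyp1d1 probe set and has no gene symbol. Like cyp1d1 it showed no call. Its mean TCDD difference over both days was −0.14 (SE 0.09, adjusted p = 0.393), with ratios of 0.524 to 0.589 on the TCDD arrays against 0.548 to 0.751 on the vehicle arrays.

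The cyp1 family was compared with the other cytochrome P450 genes on the array, 64 probe sets of 45 genes, which hold enzymes of steroid, bile acid, retinoid, vitamin D and fatty acid metabolism. None of the 64 was called by limma at 3 dpa, at 2 dpa or over both days, where 0.574%, 0.161% and 5.0% of all probe sets were called. On single days a count of 0 among 64 is near that share. At an unadjusted p under 0.05 there were 6 higher and 4 lower at 3 dpa, or 15.6% of the 64 against 15.7% of all probe sets. There were 2 higher and 1 lower at 2 dpa (4.69% against 10.2%), and 7 higher and 6 lower over both days (20.3% against 21.5%). Their median difference over both days was 0.02, against 0.00 over all probe sets, and 59 of the 64 lay within 0.5 of 0. Their range over both days ran from −0.83 to 0.83, below the differences of cyp1a and cyp1c1 Dr.12329.1.A1_at. The difference of DrAffx.2.87.S1_at, 0.91 over both days, was close to the top of that range and not above it in every setting. At 3 dpa it was 0.97, against 1.16 for a cyp24a1 probe set and −1.07 for a cyp26b1 probe set. Without TCDD 3 dpa replicate 2 it was 0.83 over both days, against 1.15 for the same cyp24a1 probe set. The cyp1c1 probe set DrAffx.2.87.A1_at and the cyp1d1 probe set, at 0.11 and 0.04, lay inside that range.

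The other P450 probe sets with the largest mean differences belonged to cyp26b1, cyp24a1 and cyp2aa1. Dr.26342.1.A1_at of cyp26b1, an enzyme that breaks down retinoic acid, read 1.03, 0.566 and 0.336 with TCDD at 3 dpa, against 1.14, 0.973 and 1.64 with vehicle, and these groups overlapped. At 2 dpa they did not, with 0.902, 0.684 and 0.842 with TCDD against 1.24, 1.17 and 1.24 with vehicle. The share of all probe sets that separate in this direction at 2 dpa was not counted. The mean difference of Dr.26342.1.A1_at was −0.83 (SE 0.24, adjusted p = 0.0759), and a second cyp26b1 probe set gave −0.57 (SE 0.18, adjusted p = 0.103). The remaining cyp26b1 probe sets gave −0.28 (adjusted p = 0.157) and −0.02 (adjusted p = 0.932). For cyp24a1, the enzyme that inactivates vitamin D, the mean difference of Dr.25214.1.A1_at was 0.83 (SE 0.34, adjusted p = 0.196). The other cyp24a1 probe set, DrAffx.2.58.A1_at, gave 0.02 (adjusted p = 0.898). The mean difference of cyp2aa1 was 0.62 (SE 0.19, adjusted p = 0.0947). The 3 TCDD 3 dpa arrays disagreed for cyp24a1 Dr.25214.1.A1_at, with ratios of 2.88, 0.862 and 3.81 against 0.893, 1.39 and 0.676 with vehicle. Its 2 dpa arrays did not overlap, with 1.02, 1.16 and 1.79 with TCDD against 0.924, 0.977 and 0.838 with vehicle. Of all probe sets 8.28% separate in this direction at 2 dpa. The single other P450 probe set whose 6 TCDD and 6 vehicle arrays did not overlap was that of cyp2p10, lower with TCDD at −0.44 (SE 0.14, adjusted p = 0.0935). Of all probe sets 2.7% separate lower and 1.64% higher over these arrays, so 1 of 64 is not above that share.

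These counts hold for the fit to all 12 arrays. Without TCDD 3 dpa replicate 2, the array with the highest cyp1a reading, cyp24a1 Dr.25214.1.A1_at was called at 3 dpa (1.81, adjusted p = 0.0356). Without that array 3 other P450 probe sets were called over both days, cyp24a1 (1.15, adjusted p = 0.0168), cyp2aa1 (0.72, adjusted p = 0.0491) and cyp8b1.1 (0.28, adjusted p = 0.0330). The cyp26b1 probe set Dr.26342.1.A1_at was called over both days without TCDD 3 dpa replicate 1 (−1.04, adjusted p = 0.0218) and after quantile normalization (−0.78, adjusted p = 0.0415). In these settings the cyp1 count over both days was 3 of 5, as in the fit to all arrays. Calls over all 15502 probe sets moved too, and without TCDD 3 dpa replicate 2 they were 391 at 3 dpa in place of 89. Over both days they were 296 to 1471 with 1 array left out and 1168 with quantile normalization, in place of 775. Without TCDD 3 dpa replicate 1 they fell to 62 at 3 dpa, so the calls did not rise in every one of these settings. Whether the other P450 calls stand apart from the change in calls over all probe sets was not tested.

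**Figure D5:**
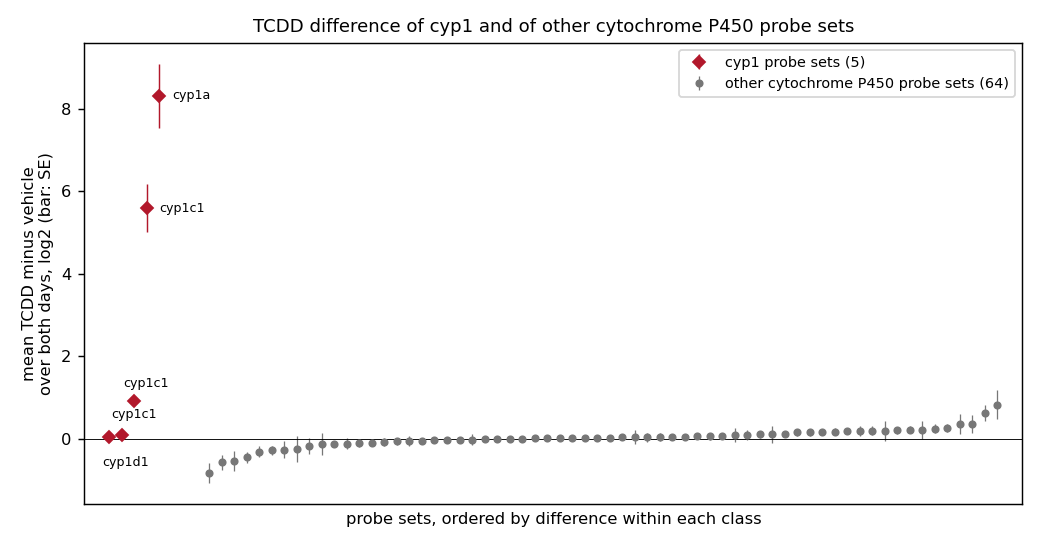
Mean TCDD minus vehicle difference over both days (vertical axis, log2, bars the SE) of the 5 cyp1 probe sets (red) and of the 64 other cytochrome P450 probe sets (grey), each class in order of its difference. The cyp1a and cyp1c1 probe sets reach 8.31 and 5.59, the second cyp1c1 probe set 0.91, and the other P450 probe sets lie between −0.83 and 0.83.

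The plot of cyp1 beside the other P450 probe sets shows these differences on one axis. The grey probe sets run close along 0, and 2 of the 5 cyp1 probe sets lie among them.

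CYP1 enzymes need haem and electrons, and 14 of 25 listed genes for these were measured, by 15 probe sets. Only 1 of the 15 (6.67%) was called, in each of the 3 TCDD comparisons, the cyb5a probe set already named for its likeness to cyp1a. Of all probe sets 0.574% were called at 3 dpa, 0.161% at 2 dpa and 5.0% over both days, so over both days the share of this list was near that of all probe sets. This list too was chosen with earlier results of these data known, so its shares are a description. The cyb5a ratio was 2.19, 2.38 and 1.56 with TCDD at 3 dpa, against 0.269, 0.370 and 0.222 with vehicle. The 2 dpa ratios were 3.11, 2.58 and 2.45 with TCDD, against 0.386, 0.439 and 0.242 with vehicle. The TCDD arrays were high and the vehicle arrays low without overlap, and the mean difference was 2.90 (SE 0.18, adjusted p = 7.24e-05), a fold of 7.49.

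The gene alas1 encodes the first enzyme of haem synthesis outside red blood cells. Its ratio was 2.28, 0.774 and 1.53 with TCDD at 3 dpa, against 0.645, 0.911 and 0.613 with vehicle, and the groups overlapped. At 2 dpa they did not, with 1.44, 1.18 and 2.59 with TCDD against 1.00, 0.998 and 0.738 with vehicle. In 8.28% of all probe sets the TCDD arrays lay above the vehicle arrays on that day. The mean alas1 difference over both days was 0.91 (SE 0.28, adjusted p = 0.0879), which missed the threshold. The gene fech, for the enzyme that inserts iron into protoporphyrin to form haem, gave 0.04 (SE 0.07, adjusted p = 0.812). The gene por, for the reductase that passes electrons to P450 enzymes, was not among the genes measured here. The median difference of the 15 probe sets was 0.14 over both days, against 0.00 over all probe sets.

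The AHR pathway and other AHR-responsive genes were read as a second list, with 12 probe sets for 10 of 25 listed genes. Called higher were tiparp and sult6b1 at 3 dpa, sult6b1 at 2 dpa, and both over both days, with 0 called lower. These are 2, 1 and 2 of the 12, against 0.284%, 0.0903% and 1.8% of all probe sets called higher. The list was chosen with earlier results of these data known, so these shares describe it and are not a test. The tiparp product is an ADP-ribosyltransferase of the PARP family, induced through the AHR, that restrains the receptor in mammals. Its mean difference was 1.17 (SE 0.14, adjusted p = 0.00289), and at 2 dpa 1.02 (SE 0.19, adjusted p = 0.0908). The mean difference of sult6b1, a sulfotransferase gene, was 1.27 (SE 0.12, adjusted p = 0.000884), a fold of 2.41.

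The receptor gene ahr2 had a mean difference of 0.49 (SE 0.12, adjusted p = 0.0513) and was not called. Its partner gene arnt2 gave 0.14 (adjusted p = 0.511) and 0.49 (adjusted p = 0.110) through its probe sets. The oxidoreductase gene nqo1, an AHR target in mammals, had a mean difference of −0.34 (SE 0.09, adjusted p = 0.0636). Its TCDD arrays read 0.720 to 0.973 and its vehicle arrays 1.03 to 1.27, without overlap, a separation in this direction that 2.7% of all probe sets show. The median difference over the 12 probe sets was 0.11 over both days, against 0.00 over all probe sets and 0.91 over the 5 cyp1 probe sets.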

How the data were processed

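Expression was measured on 12 Affymetrix zebrafish arrays, 3 for each of 4 groups, assigned from the labels alone. The deposited values are a linear ratio of array signals, with GCRMA named (without a version) in the submitters' processing notes. How the ratio was scaled is not given in the sources used here and was read from the values: 12064 of 15617 rows have a median of 1 over the 12 arrays (tolerance 1e-06) and 3553 a lower one. The 115 control probe sets were left out. The lowest ratio was 0.000773, and log2 was taken without a pseudocount.

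Symbols came from the platform annotation (10795 probe sets with 1 symbol, 135 with several, 4572 with none), updated through Entrez identifiers (10711 matched, 1 changed). Group means were fitted with limma 3.58.1 (lmFit, eBayes) under R 4.3.3. Residual degrees of freedom were 8, and the prior added 2.08. All tests were two-sided. The fit was tested on simulated data. The number of arrays limits the precision.

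Every probe set of the 3 genes is given. Also named are the 5 probe sets most alike cyp1a and cyp1c1, the 4 other P450 probe sets of largest mean difference, called members of the list of electron donors and haem genes and of the AHR list, and alas1, fech, por, ahr2, arnt2, tiparp and nqo1. The mpx and DrAffx.2.90.A1_at probe sets, cyp2p10, cyp8b1.1 and the leave-one-out calls were named after their values were seen. Members and lists were chosen with earlier results of these data known. Alternatives were a floor, a pseudocount, normalization, a filter, the arrays fitted, the prior, blocks and leaving out each array; counts of called P450 probe sets under them were added after seeing the data. No sequence was used.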

Additional observations from a re-analysis of the deposited data

How the results depend on the processing

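The TCDD differences of cyp1a and of cyp1c1 Dr.12329.1.A1_at and DrAffx.2.87.S1_at stayed positive under every alternative run. Leaving out 1 array at a time, the cyp1a difference ran from 7.21 to 8.51 at 3 dpa and from 7.20 to 9.53 at 2 dpa. For cyp1c1 Dr.12329.1.A1_at it ran from 4.07 to 6.19 at 3 dpa and from 5.75 to 6.22 at 2 dpa, and for DrAffx.2.87.S1_at from 0.80 to 1.103 at 3 dpa. With a trend and robust prior cyp1a (8.70, adjusted p = 0.0561) and Dr.12329.1.A1_at (6.06, adjusted p = 0.0673) lost the call at 2 dpa, and Dr.12329.1.A1_at lost it at 3 dpa (5.11, adjusted p = 0.0589). Fitted to only the 6 arrays compared, with fewer degrees of freedom, cyp1a lost the call at 2 dpa (8.70, adjusted p = 0.103) and 3 dpa (7.92, adjusted p = 0.0578), as did Dr.12329.1.A1_at (5.11, adjusted p = 0.189) and DrAffx.2.87.S1_at (0.97, adjusted p = 0.200) at 3 dpa. With a block for the hybridisation control level, the 3 dpa difference is TCDD 3 dpa replicate 2 alone against the 3 vehicle arrays (8.65 for cyp1a, 5.67 for Dr.12329.1.A1_at and 1.30 for DrAffx.2.87.S1_at), and no call is read from it. With quantile normalization DrAffx.2.87.S1_at was called at 2 dpa (0.97, adjusted p = 0.0259). The cause of these changes was not tested. Sign changes occurred only in differences that were not called, among them the day dependence of cyp1a.

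Same-numbered TCDD and vehicle arrays did not deviate together in every pair (correlations of 0.436, −0.252 and −0.128 at 3 dpa, and 0.0717, 0.190 and 0.141 at 2 dpa). At 2 dpa each TCDD array correlated most with the vehicle array of its own number, and at 3 dpa only replicate 1 did. Whether same-numbered arrays share more than a number was not tested. With the replicate block 147 probe sets were called at 3 dpa in place of 89, and cyp1a kept its calls (adjusted p = 0.0288 at 3 dpa and 0.0300 at 2 dpa). With this block Dr.12329.1.A1_at (0.0425 and 0.0492) and DrAffx.2.87.S1_at (0.0425 and 0.122) stayed on the same side of the threshold on both days.

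The count of called probe sets at 2 dpa, 25, was 163 with quantile normalization and 39 with the hybridisation block, and ran from 8 to 49 with 1 array left out. At 3 dpa it was 217 with the hybridisation block, resting on that 1 TCDD array, and 6 with only the arrays compared, and ran from 28 to 391. The 775 over both days became 1168 with quantile normalization and 387 with the hybridisation block, and 296 to 1471 with 1 array left out. Counts under that block of 15 for the day dependence and 26 between days in vehicle fins, against 0, are identified through the same single array and were not read as calls. The called cyp1 probe sets were 0 at 2 dpa with the trend and robust prior, and with only the arrays compared 1 at 2 dpa and 0 at 3 dpa. With 1 array left out they were 0 to 2 at 2 dpa and 0 to 3 at 3 dpa. Other P450 probe sets called were 0 to 1 at 3 dpa and 0 to 3 over both days with 1 array left out, and 1 over both days with quantile normalization. The fit to 6 arrays was not run for the day dependence and the mean effect, and cyp1d1 was not in the filter on a median of 1.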
